A study of Mus musculus with 22 samples.

Results

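The genes described here are the chemokines and their receptors, taken as every row of the count table whose symbol is that of a CC, CXC, XC or CX3C ligand or receptor or of the atypical receptors Ackr1 to Ackr4. There were 61 of them among 24454 gene symbols, of which 39 were ligands, 18 were signalling receptors and 4 were atypical receptors. Chemokines are small secreted or membrane-tethered proteins that direct cell movement along gradients. Their signalling receptors couple to inhibitory G proteins and drive migration, adhesion and retention of cells, while the atypical receptors bind chemokines without that coupling and remove or carry them. In the embryonic vessel wall the CXCL12-CXCR4 pair is best known for vessel patterning and for retaining blood progenitors, and several CC and CX3C receptors mark monocytes and macrophages.

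The data are 22 RNA libraries, each made from 25 VE-Cadherin-positive cells that were sorted from the aorta-gonad-mesonephros (AGM) region, the tissue around the dorsal aorta where blood stem cells first arise. All embryos were untreated C57BL/6 mice with no labelled allele, and the groups are defined by the surface proteins used for sorting. The CD44Neg population, labelled endothelial, had 10 libraries, with 4 libraries of embryonic day 9.5 (E9.5) and 3 each of E10 and E11. CD44LowKitNeg cells, labelled hemogenic endothelial, had 6 libraries (E11 with 3, E10 with 2 and E9.5 with 1). CD44LowKitPos cells, labelled Pre-HSPC, had 3 libraries (E10 with 2 and E9.5 with 1), and CD44High cells, labelled HSPC, had 3 libraries, all at E11. Nothing in the labels says whether libraries of a population came from separate embryos or litters, so p-values measure the spread between these libraries. The date in the labels changes with stage, and the effects of date and stage cannot be told apart.

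Between 3912350 and 8657546 reads were counted per library, and Rn45s, a ribosomal RNA gene, took 1.92% to 23.9% of them. Levels are given as normalized CPM, which are counts scaled to library size by the TMM factors of edgeR over all 22 libraries. A gene was taken as detected in a library with more than 3 counts, which is also the limit that a count of 0 allows, for counting error only. On this scale 3 counts were worth 0.348 to 0.816 normalized CPM. The summed level of 8 endothelial markers was 3519 to 8666 in CD44Neg and CD44LowKitNeg, 766 to 1854 in CD44LowKitPos and 14.3 to 78.8 in CD44High, where Cdh5, which encodes VE-Cadherin itself, had no read. The summed level of 9 blood markers was 19.6 to 49.7 in CD44Neg, 108 to 390 in CD44LowKitNeg (highest in replicates 15 and 16, at 390 and 219), 543 to 1399 in CD44LowKitPos and 1248 to 2287 in CD44High. The summed level of 12 macrophage markers was 1412 to 3882 in CD44High and at most 97.3 in the other populations, in which Adgre1, C1qa, C1qb and C1qc had no read, while Cd163 was at 0 in CD44High as well. Of 12 mesenchymal markers, the sum was 836 and 593 in CD44High replicates 20 and 21 and 0.272 in replicate 22.

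Of the 61 genes, 42 were detected in at least 1 library and 19 had no read in any. CD44Neg libraries detected a median of 9 members (5 to 12), CD44LowKitNeg libraries 7 to 14, CD44LowKitPos libraries 16 (10 to 18) and CD44High libraries 21 (21 to 22). The ranges of CD44Neg and CD44High did not overlap. The summed level of all ligands was 38.7 ± 18.7 normalized CPM in CD44Neg (SD, n = 10), 168 ± 89.2 in CD44LowKitNeg (n = 6), 69.6 ± 5.88 in CD44LowKitPos (n = 3) and 964 ± 595 in CD44High (n = 3). The summed level of the signalling receptors was 9.09 ± 7.67, 30.0 ± 5.32, 23.0 ± 2.46 and 1189 ± 381 in the same order. The 4 atypical receptors ran the other way, with sums of 25.7 ± 13.9, 22.5 ± 17.03, 6.28 ± 5.44 and 3.87 ± 6.25. All 3 CD44High libraries lay above every other library for the ligand and the receptor sums, whereas for the atypical receptors the populations overlapped. In bulk samples of sorted cells, fewer cells of a type and less RNA per cell cannot be told apart.

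**Figure D1:**
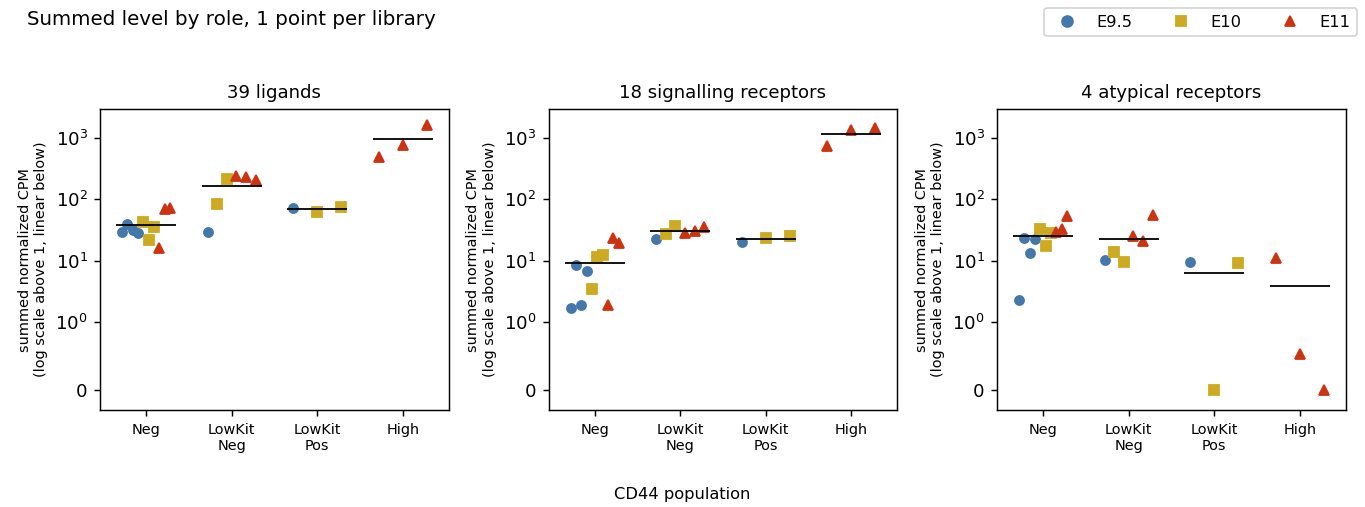
Summed normalized CPM of the 39 ligands, 18 signalling receptors and 4 atypical receptors in each library (vertical axis, logarithmic above 1 and linear below), by population (horizontal axis), with the mean as a horizontal line and the stage as colour and shape. The CD44High libraries lay at 490 to 1632 for ligands and at 752 to 1449 for signalling receptors.

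**Figure D2:**
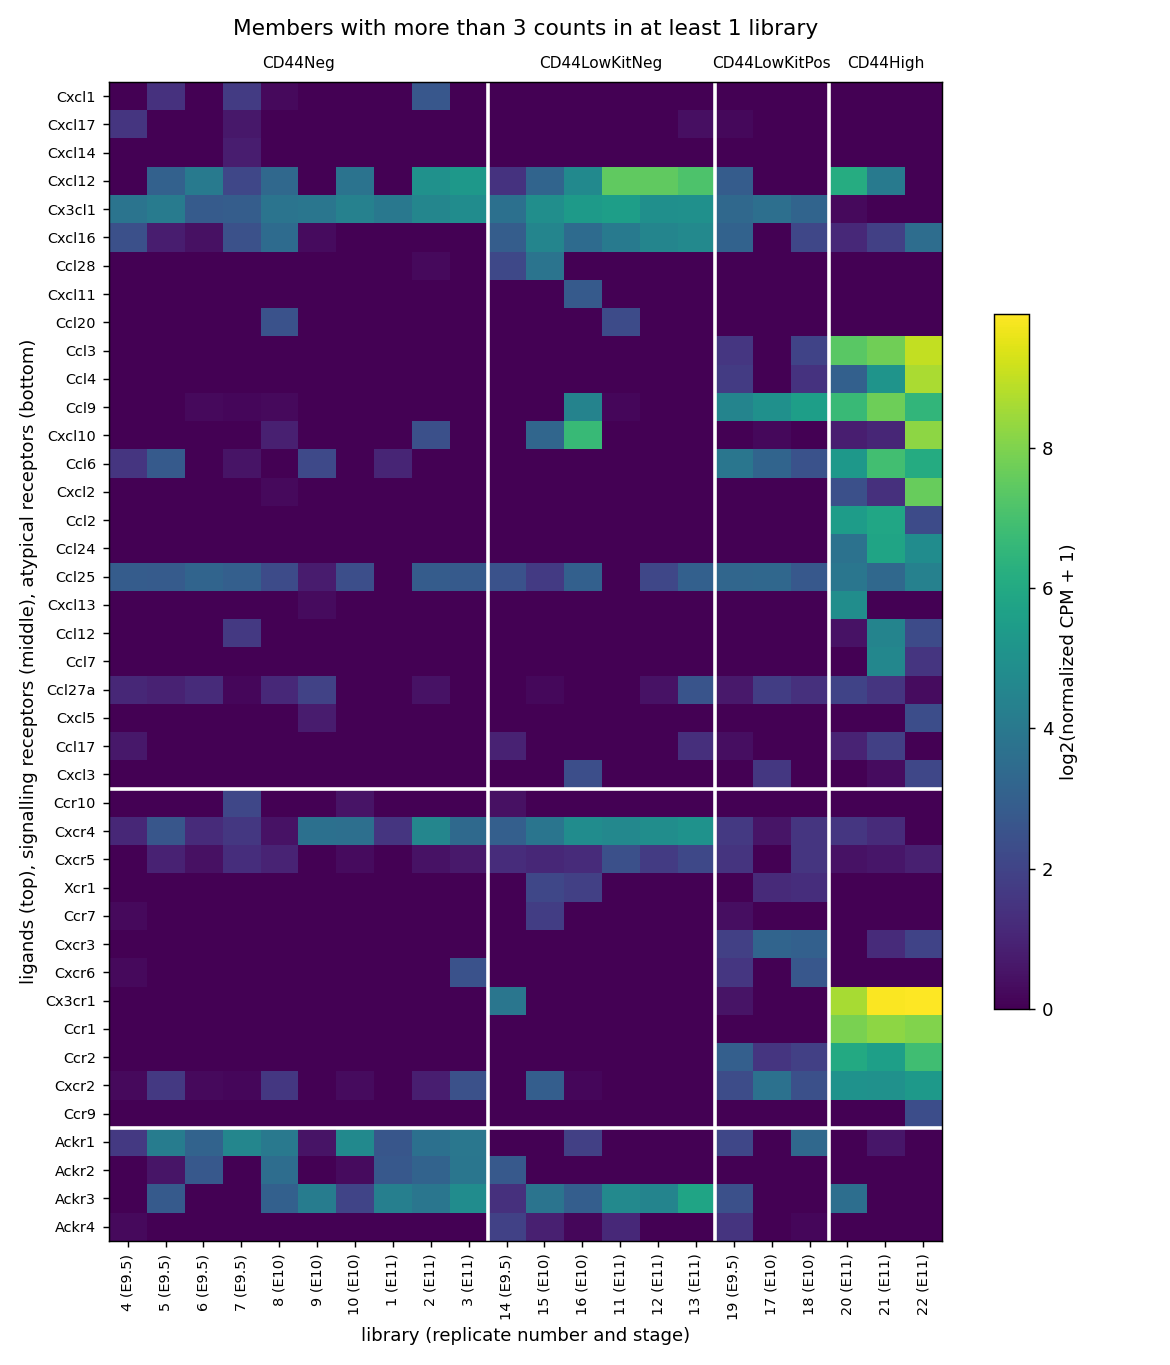
Level of the detected members, with 1 left out, as log2(normalized CPM + 1) (colour), with libraries in columns by population and stage and members in rows by role and by the population in which their mean was highest. Cxcl12, Cx3cl1, Cxcl16, Cxcr4 and Ackr3 had their highest mean in CD44LowKitNeg, and Ccl3, Ccl4, Ccr1 and Cx3cr1 in CD44High.

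Levels of different genes were set side by side per kilobase of annotated exon. In CD44Neg, Ackr1 led with 8.59 ± 5.85 normalized CPM per kilobase (SD, n = 10), followed by Cx3cl1 with 3.87 ± 1.64 and Cxcr4 with 3.71 ± 3.92, and these 3 lay within their spread between libraries. In CD44LowKitNeg the order was Cxcr4 with 12.1 ± 5.24, Cxcl12 with 10.7 ± 10.4 and Cxcl10 with 8.05 ± 17.9 (n = 6), again within their spread, and Cxcl10 owed its place to replicate 16. This order pooled the stages, since per kilobase Cxcl12 was 21.6, 21.6 and 17.03 in the E11 libraries, where Cxcr4 was 13.2, 15.3 and 17.6, and 0.213, 0.985 and 3.08 in the earlier ones, where Cxcr4 was 3.91, 7.52 and 14.9. In CD44LowKitPos, Ccl9 led with 10.6 ± 4.16 normalized CPM per kilobase and Ccl6 followed with 4.94 ± 2.59 (n = 3). In CD44High, Ccl3 reached 386 ± 240, Ccl4 223 ± 333 and Cx3cr1 169 ± 71.1 (n = 3), and Ccl4 owed its place to replicate 22 (10.8, 51.6 and 607 per kilobase in replicates 20 to 22, against 86.8, 207 and 213 for Cx3cr1). Exon lengths came from GENCODE, which may not be the annotation the authors counted on.

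The comparison of CD44LowKitNeg with CD44Neg asks how the endothelium labelled hemogenic differs from the rest. Of the 8 members that passed the filter on low counts in these 16 libraries (Ackr1, Ackr2, Ackr3, Ccl25, Cx3cl1, Cxcl12, Cxcl16 and Cxcr4), edgeR's quasi-likelihood test called 0 at a Benjamini-Hochberg adjusted p under 0.01, against 10.2% of all 11022 genes tested. Unadjusted p was under 0.05 for 5 of the 8 and for 32.6% of all genes tested, and DESeq2's Wald test called 1, Ackr1, and 15.8% of all genes. Cxcl12, Cxcl16, Cx3cl1, Cxcr4 and Ackr3 lay higher in mean level in CD44LowKitNeg and Ackr1, Ackr2 and Ccl25 lower, as the next paragraphs describe. None of these differences passed the threshold. The median log2 fold change was 1.10 over the 8 members and 0.01 over all genes tested.

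CXCL12, the ligand (Cxcl12, chr6:117168535-117181367, plus strand, GRCm38), CXCR4, its signalling receptor, and ACKR3, which binds and clears the same ligand, form the axis followed here through all populations. Cxcl12 in CD44Neg ran from 0 through a median of 8.22 to 38.4 normalized CPM, and in CD44LowKitNeg from 1.74 through 82.2 to 177. In CD44LowKitPos it was 0, 0 and 6.33 (replicates 17 to 19), and in CD44High 70.1, 15.4 and 0 (replicates 20 to 22). In CD44High it was high where the summed mesenchymal markers were (836, 593 and 0.272 in the same order), and their part in its level was not tested. The same sum was 158 to 293 in CD44LowKitNeg and 0.465 to 105 in CD44Neg. In CD44LowKitPos, where Cxcl12 was low, the sum was 270, 183 and 133. Acta2 alone, among these markers, was 598, 449 and 0 in CD44High and 270, 181 and 117 in CD44LowKitPos. It ran from 76.5 to 289 in CD44LowKitNeg and from 0 to 105 in CD44Neg. The part of the sum in the Cxcl12 difference between CD44LowKitNeg and CD44Neg was not tested. For Cxcl12 the 2 endothelial populations overlapped, and within CD44LowKitNeg the 3 E11 libraries lay far above the rest. The mean was 7.46 times higher in CD44LowKitNeg than in CD44Neg (log2 fold change 2.90 ± 0.95 SE), which did not pass the threshold (edgeR's quasi-likelihood test, adjusted p = 0.0346). In separate fits the log2 fold change was 0.79 at E9.5 and E10 (edgeR, adjusted p = 0.77) and 2.85 at E11 alone (edgeR, adjusted p = 0.0904). The test of whether the difference changed from E10 to E11 did not pass the threshold (1.61 ± 1.67 on the log2 scale, SE; edgeR, adjusted p = 0.816).

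Within CD44LowKitNeg, Cxcl12 was compared between stages, a comparison chosen after its values were seen. At E11 it stood at 177, 176 and 139 normalized CPM (replicates 11 to 13), against 1.74 at E9.5 (replicate 14) and 8.06 and 25.2 at E10 (replicates 15 and 16), so that the stages did not overlap. The sum of the 12 mesenchymal markers was 161, 158 and 176 in the same E11 libraries and higher in the earlier ones, at 189, 238 and 293. Among them, Col3a1 was higher at E11 (14.8, 21.1 and 36.1 against 0, 5.37 and 0), as was Pdgfra (7.80, 6.08 and 10.1 against 0 in each), while Acta2 was lower (88.5, 128 and 76.5 against 169, 227 and 289). Summed arterial markers were 4681, 3657 and 3789 at E11 against 1958, 1910 and 2310. Summed endothelial markers were 8666, 7629 and 7230 against 3727, 3723 and 5004. The Rn45s share was 17.4%, 18.6% and 19.2% against 7.29%, 9.71% and 11.1%. The part of all these in the Cxcl12 difference was not tested. The log2 fold change of E11 over the earlier libraries was 3.85 ± 0.78 (SE), with an adjusted p of 0.0438 by edgeR's quasi-likelihood test, above the threshold, and of 8.92e-07 by DESeq2. None of the 7 members tested there was called by edgeR, against 0.173% of all 11010 genes tested, 2 had an unadjusted p under 0.05 (16.8% of all genes tested), and DESeq2 called 1, Cxcl12 (5.07% of all genes). In all, 3 members lay higher in every E11 library than in every earlier one (Cxcl12, Ackr3 and Cxcr5), where 11.9% of all genes tested did so. In CD44Neg the same ligand was at 0, 31.3 and 38.4 at E11 and between 0 and 15.6 at the earlier stages.

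Cxcr4 in CD44Neg ran from 0.402 through a median of 3.63 to 22.6 normalized CPM, and in CD44LowKitNeg from 7.07 through 25.4 to 31.8. In CD44LowKitPos it was 0.465, 1.87 and 2.11, and in CD44High 1.98, 1.33 and 0. Every CD44LowKitNeg library exceeded every CD44LowKitPos and CD44High library, while the endothelial populations overlapped. CD44LowKitPos was lower than CD44LowKitNeg by a log2 fold change of -3.86 ± 1.22 (SE; edgeR's quasi-likelihood test, adjusted p = 0.0393), and CD44High by -4.26 ± 1.26 (edgeR, adjusted p = 0.0145), neither past the threshold.

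Ackr3, the scavenger of CXCL12, ran from 0 through a median of 6.60 to 26.9 normalized CPM in CD44Neg and from 1.62 through 17.1 to 54.8 in CD44LowKitNeg. It was 0, 0 and 4.37 in CD44LowKitPos and 11.1, 0 and 0 in CD44High. These ranges overlapped, and CD44LowKitNeg and CD44Neg differed by a log2 fold change of 1.14 ± 0.95 (SE; edgeR's quasi-likelihood test, adjusted p = 0.448). Within CD44Neg its E11 libraries held 18.3, 13.8 and 26.9, above all 4 E9.5 libraries, of which 3 were at 0 and replicate 5 held 5.97. That difference was 3.78 ± 1.42 on the log2 scale (SE) and was not called (edgeR, adjusted p = 0.178).

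The promoter of Cxcl12 is printed as that of the ligand of this axis, whose level set the E11 CD44LowKitNeg libraries apart. The 200 bases before the start of Cxcl12 (RefSeq, GRCm38.p6, chr6:117168335-117168534, plus strand) are given 5′ to 3′ in the direction of the gene. They were searched on both strands for 4 motifs, GAGGAA (a PU.1-type ETS motif), TGTGGT (RUNX), TGANTCA (AP-1, the same on both strands) and a palindrome-like NF-kappaB motif, and held no match.
Cxcl12: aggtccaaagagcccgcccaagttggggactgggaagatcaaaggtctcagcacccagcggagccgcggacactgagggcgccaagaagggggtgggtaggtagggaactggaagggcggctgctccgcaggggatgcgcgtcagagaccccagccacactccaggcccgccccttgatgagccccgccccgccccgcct

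Cx3cl1 (chr8:94772009-94782427, plus strand) encodes fractalkine, a membrane-tethered ligand that endothelium presents to cells bearing CX3CR1. It ran from 6.14 through a median of 14.2 to 26.9 normalized CPM in CD44Neg and from 11.7 through 30.1 to 45.7 in CD44LowKitNeg. In CD44LowKitPos it was 11.2, 8.14 and 9.20, and in CD44High 0.198, 0 and 0. Every endothelial and CD44LowKitPos library held the transcript, and CD44High lay below all of them. Cx3cl1 was 2.06 times higher in CD44LowKitNeg than in CD44Neg without passing the threshold (log2 fold change 1.05 ± 0.35 SE; edgeR's quasi-likelihood test, adjusted p = 0.0408). It fell in CD44High relative to each other population, with log2 fold changes of -6.59 ± 0.90 against CD44LowKitPos (edgeR, adjusted p = 2.98e-05), -8.31 ± 0.91 against CD44LowKitNeg (edgeR, adjusted p = 3.82e-07) and -7.27 ± 0.87 against CD44Neg (edgeR, adjusted p = 1.26e-06). The CD44High level rested on 1 read in replicate 20, so that these fitted values depend on it. They were -8.79, -10.55 and -9.47 without that replicate, and taken against the floor in place of a fit, CD44High then stood at least 11.8-fold, 38.8-fold and 18.8-fold below the same populations. Endothelial markers were lowest in the same libraries, and their part in this difference was not tested.

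Cxcl16, a second tethered ligand, whose receptor is CXCR6, ran from 0 through 0.298 to 10.1 normalized CPM in CD44Neg and from 6.61 through 18.5 to 24.5 in CD44LowKitNeg. It had no read in the 3 CD44Neg libraries from E11, while the 3 CD44LowKitNeg libraries of that stage held 15.5, 21.6 and 24.5. Over all stages the log2 fold change was 3.03 ± 1.02 (SE) and was not called (edgeR's quasi-likelihood test, adjusted p = 0.0397). With the E11 libraries alone, 1 of 9 members tested was called, Cxcl16, which was higher (edgeR, adjusted p = 0.00569), where 3.41% of all genes tested were called in either direction. At E9.5 and E10 alone its adjusted p was 0.276 (edgeR). A test of whether its difference between the populations changed from E10 to E11 did not pass the threshold either (edgeR, adjusted p = 0.35). An exon of Zmynd15 lies antisense to Cxcl16, and without strand information reads of the 2 genes cannot be told apart.

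Ackr1, an atypical receptor of broad chemokine specificity known from red cells and venular endothelium, had the widest difference towards a lower mean in CD44LowKitNeg, where Ackr2 and Ccl25 lay lower as well and none of the 3 passed the threshold. It had reads in all 10 CD44Neg libraries, from 0.447 through a median of 12.9 to 25.2 normalized CPM, and had no read in 5 of 6 CD44LowKitNeg libraries, with 2.71 in replicate 16. CD44LowKitPos held 0, 9.20 and 3.32, and CD44High 0, 0.533 and 0. The endothelial populations overlapped because CD44LowKitNeg replicate 16 lay above CD44Neg replicates 4 and 9. The log2 fold change was -4.67 ± 1.25 (SE), just short of the threshold (edgeR's quasi-likelihood test, adjusted p = 0.0115). It was -9.13 without CD44LowKitNeg replicate 16, the only library of that population with reads. DESeq2 called it (adjusted p = 9.69e-05), as did edgeR when stage entered the model (adjusted p = 0.00542) or when CD44LowKitNeg replicate 16 or CD44Neg replicate 9 was left out (lowest adjusted p = 0.000314). The summed level of 5 venous markers was 685 to 1475 in CD44Neg and 96.7 to 273 in CD44LowKitNeg, where replicate 16 held the highest value. That of 7 arterial markers was 372 to 1125 and 1910 to 4681, and the part of these sums in the Ackr1 difference was not tested. Ackr1 shares exon sequence on the same strand with Cadm3.

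**Figure D3:**
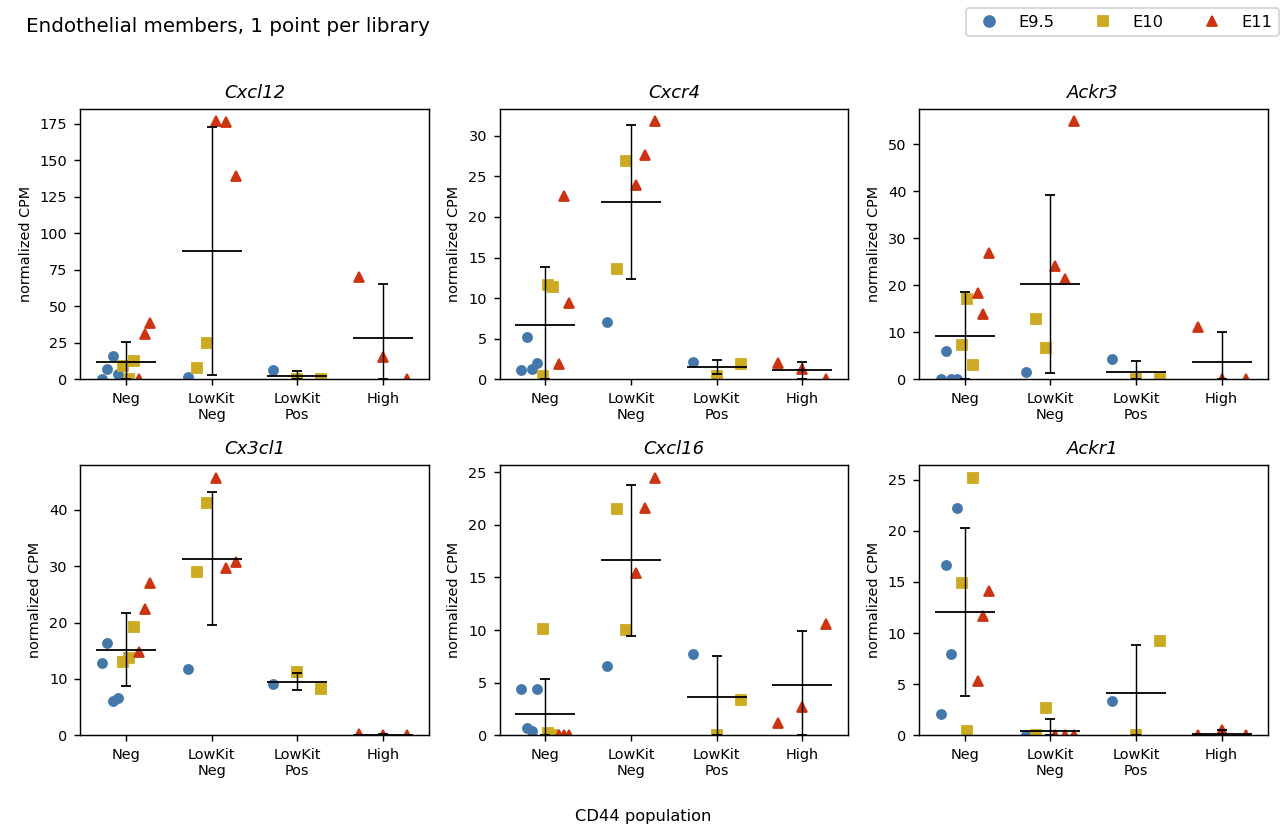
Normalized CPM (vertical axis) of Cxcl12, Cxcr4, Ackr3, Cx3cl1, Cxcl16 and Ackr1 in each library by population (horizontal axis), with stage as colour and shape, the mean as a horizontal line and the SD as a whisker cut at 0. The 3 E11 libraries of CD44LowKitNeg held Cxcl12 at 139 to 177, and Ackr1 was at 0 in 5 of 6 CD44LowKitNeg libraries.

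The remaining 2 members of this fit were not called either. Ccl25, a ligand best known from the thymus and gut, lay between 0 and 8.19 normalized CPM in CD44Neg and between 0 and 7.28 in CD44LowKitNeg, with a log2 fold change of -0.25 ± 0.88 (SE; edgeR's quasi-likelihood test, adjusted p = 0.884). An exon of Elavl1 lies antisense to it. Ackr2, a scavenger of inflammatory CC ligands, ran from 0 through a median of 3.02 to 13.6 in CD44Neg and was detected in 1 CD44LowKitNeg library at 5.80 (log2 fold change -2.15 ± 1.58; edgeR, adjusted p = 0.378). It had no read in CD44LowKitPos or CD44High.

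Among the CD44Neg libraries, stages were compared for 8 members and edgeR's quasi-likelihood test called 0 in each comparison. The shares of all 11250 genes called were 0.684% for E11 against E9.5, 0.0178% for E10 against E9.5 and 0% for E11 against E10. Unadjusted p was under 0.05 for 2, 0 and 1 members, against 17.1%, 15.2% and 8.68% of all genes tested, and DESeq2 called 0 in each, against 3.81%, 2.05% and 0.4% of all genes. The 2 members at E11 against E9.5 were Ackr3, which lay above, and Cxcl16, which had no read at E11 (edgeR, adjusted p = 0.211). The test of whether the difference between CD44LowKitNeg and CD44Neg depended on stage (E10 and E11, 11 libraries) called 0 of 14 members, against 0.00806% of all genes tested, with 5 at an unadjusted p under 0.05 (10.7% of all genes tested). DESeq2 called 0, against 1.01% of all genes, and gave no adjusted p for 5.

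The step to CD44LowKitPos asks what changes where Kit appears on CD44Low cells. In a fit of all 22 libraries 26 members passed the filter, which keeps a gene that is high in as few as 3 libraries, so a member found in a small population entered through that population. Against CD44LowKitNeg, 2 of the 26 were called, both higher (Ccr2 and Ccl6), where 4.26% of all 12949 genes tested were called and 2.55% were higher. Against CD44Neg, 2 were called, both higher (Ccr2 and Ccl9), where 3.48% of genes were called and 2.08% were higher. These 2 comparisons share the CD44LowKitPos libraries. The summed blood markers were also higher in each of these libraries than in any endothelial one, and their part in the differences was not tested.

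CCR2 is the receptor that brings monocytes out of the marrow. Ccr2 had no read in any of the 16 endothelial libraries, was 1.86, 2.67 and 6.94 normalized CPM in CD44LowKitPos and 64.5, 47.4 and 117 in CD44High. It rose at least 9.12-fold in CD44LowKitPos over CD44LowKitNeg (edgeR's quasi-likelihood test, adjusted p = 0.00201) and at least 6.31-fold over CD44Neg (edgeR, adjusted p = 0.000716). The floor was 3 counts per library. Without CD44LowKitPos replicate 19 these bounds were 5.41-fold and 3.74-fold. Between CD44LowKitPos and CD44High the mean was 19.9 times higher in CD44High, with no overlap, at an adjusted p above the threshold (edgeR, 0.0289), and 33.6 times higher without CD44LowKitPos replicate 19.

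Ccl6 and Ccl9 are neighbouring CC ligands of myeloid cells, both of which act through CCR1. Ccl6 had no read in CD44LowKitNeg, ran from 0 through 0.215 to 5.97 normalized CPM in CD44Neg, was 8.06, 4.67 and 13.9 in CD44LowKitPos and 38.2, 117 and 67.2 in CD44High. It was at least 21.2-fold higher in CD44LowKitPos than in CD44LowKitNeg (edgeR's quasi-likelihood test, adjusted p = 0.00376), and overlapped with CD44Neg (edgeR, adjusted p = 0.132). Ccl9 was at most 0.201 in CD44Neg, at most 0.134 in 5 CD44LowKitNeg libraries and 20.6 in CD44LowKitNeg replicate 16, 30.2, 46.0 and 20.96 in CD44LowKitPos and 103, 209 and 90.6 in CD44High. Every CD44LowKitPos library lay above every endothelial library for Ccl9, with a log2 fold change of 8.67 ± 1.32 (SE) over CD44Neg (edgeR, adjusted p = 0.000178) and of 3.22 ± 1.17 over CD44LowKitNeg, which was not called (edgeR, adjusted p = 0.0728). The latter rested on CD44LowKitNeg replicate 16, and the ratio of means went from 9.40 to 1205 without it. The call of Ccl6 was lost without CD44LowKitPos replicate 17 (edgeR, adjusted p = 0.0177). Without CD44LowKitNeg replicate 16, 4 members were called in place of 2, and the share of all genes called in that fit was not worked out.

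Calls in CD44LowKitPos differed with the handling of stage. With the E9.5 and E10 libraries alone, Ccr2 and Ccl6 were not called over CD44LowKitNeg (edgeR's quasi-likelihood test, adjusted p = 0.135 and 0.0787), nor were they when stage entered the model (edgeR, adjusted p = 0.0103 and 0.0122). Ccl9 over CD44Neg was called in both cases (edgeR, adjusted p = 0.00312 and 0.00013), and Ccr2 over CD44Neg only in the latter (edgeR, adjusted p = 0.0417 and 0.00219).

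A further 3 receptors were found at low level and were not called. Cxcr3, a receptor for interferon-induced ligands, had no read in the endothelial populations and was 8.22, 7.20 and 2.71 normalized CPM in CD44LowKitPos and 0, 1.33 and 2.99 in CD44High. Cxcr6, the receptor for CXCL16, was 0, 5.47 and 1.96 in CD44LowKitPos and at 4.65 in CD44Neg replicate 3. Neither was called, although every CD44LowKitPos library lay above every endothelial library for Cxcr3 (edgeR's quasi-likelihood test, adjusted p = 0.0198 against CD44LowKitNeg and 0.0111 against CD44Neg). Xcr1, the receptor for XCL1, was 3.36 and 2.71 in CD44LowKitNeg replicates 15 and 16, 1.24 and 1.47 in CD44LowKitPos replicates 17 and 18 and at 0 elsewhere, and its ligand Xcl1 had no read.

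In CD44High, receptors and ligands known from myeloid cells were among the members called higher than in the other populations. Against CD44LowKitPos, 4 of 26 members were called (Ccr1, Ccl3 and Cx3cr1 higher, Cx3cl1 lower), where 3.01% of all genes tested were called, 0.78% higher and 2.23% lower. Against CD44LowKitNeg, 11 were called, 10 higher and 1 lower, where 16% of genes were, 7.79% higher and 8.17% lower. Against CD44Neg, 13 were called, 12 higher and 1 lower, where 14.4% were, 7.14% higher and 7.25% lower. With the E11 libraries alone the counts were 12 against CD44LowKitNeg (15.5% of all genes) and 9 against CD44Neg (8.47%). Without each CD44High library in turn they were 8 to 10 and 11 to 13, and the shares of all genes in those fits were not worked out. Members without a read in any other population, such as Ccr1, Ccl2 and Ccl24, passed the filter through CD44High alone. Their direction was set by their entry into the test, so these counts cannot be weighed against the shares of all genes. The 3 comparisons share the CD44High libraries, and CD44High and CD44LowKitPos have no stage in common. Macrophage markers were highest in the same 3 libraries, and their part in these differences was not tested.

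Among the receptors, CCR1 and CX3CR1 stood out. Ccr1 (chr9:123962124-123968692, minus strand), a receptor for CCL3, CCL6 and CCL9, had no read in the other 19 libraries and was 243, 299 and 260 normalized CPM in CD44High, that is at least 608-fold higher than in CD44LowKitPos (edgeR's quasi-likelihood test, adjusted p = 4.93e-05), at least 638-fold higher than in CD44LowKitNeg (edgeR, adjusted p = 2.09e-06) and at least 441-fold higher than in CD44Neg (edgeR, adjusted p = 5.65e-07). With stage in the model the difference from CD44LowKitPos, a population with no E11 library, could not be estimated (SE 26069 on the log2 scale) and was not called (edgeR, adjusted p = 1). Cx3cr1, the fractalkine receptor of macrophages and microglia, was 391, 932 and 958 in CD44High, 0, 0 and 0.452 in CD44LowKitPos, at 0 in all CD44Neg libraries, 13.7 in CD44LowKitNeg replicate 14 and at 0 in the rest. The CD44High libraries lay above all others for both. For Cx3cr1 the log2 fold change over CD44LowKitNeg was 8.30 ± 1.36 (SE; edgeR, adjusted p = 0.000355), and the mean was at least 1255-fold higher than in CD44Neg (edgeR, adjusted p = 6.92e-06). The CD44LowKitNeg mean rested on replicate 14, and the former value ran from 7.97 to 15.08 as single libraries were left out, with 15.08 without that replicate. Over CD44LowKitPos the adjusted p was 0.00439 (edgeR), which rose to 0.0287 at most when libraries were left out and lost the call without CD44High replicate 21 or 22 or any of the 3 CD44LowKitPos libraries. Ligand and receptor of this pair were high in different populations, Cx3cl1 in the endothelial and CD44LowKitPos libraries and Cx3cr1 in CD44High. Gm33858 lies antisense to an exon of Cx3cr1.

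Ccr2 was at least 182-fold higher in CD44High than in CD44LowKitNeg (edgeR's quasi-likelihood test, adjusted p = 2.38e-05) and at least 126-fold higher than in CD44Neg (edgeR, adjusted p = 5.04e-06). Cxcr2, the neutrophil receptor for CXCL1 and CXCL2, was 32.3, 31.2 and 39.7 in CD44High, 11.9, 4.40 and 3.92 in CD44LowKitPos, 0 to 6.71 in CD44LowKitNeg and 0 to 4.49 in CD44Neg. Its CD44High libraries lay above all others, with a log2 fold change of 5.04 ± 1.29 (SE) over CD44Neg (edgeR, adjusted p = 0.00555). That call was lost in 6 of 22 fits that left out 1 library, each of the 3 CD44High libraries among them and CD44Neg replicates 2, 4 and 7, where adjusted p reached 0.0211, and the value itself was highest without CD44Neg replicate 3, at 5.72.

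**Figure D4:**
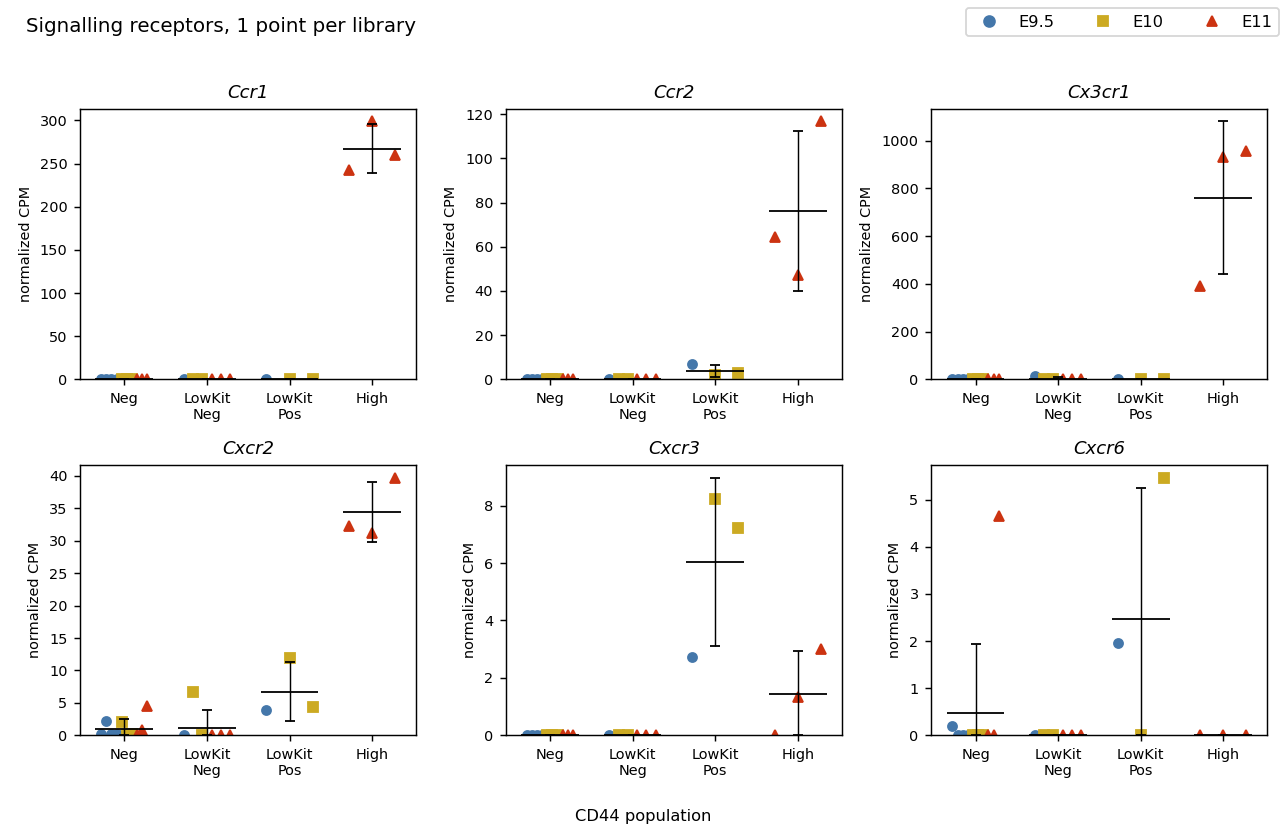
Normalized CPM (vertical axis) of 6 signalling receptors in each library by population (horizontal axis), with stage as colour and shape, the mean as a horizontal line and the SD as a whisker cut at 0. Ccr1, Ccr2, Cx3cr1 and Cxcr2 were higher in each CD44High library than in any other library, and Cxcr3 and Cxcr6 had their highest mean in CD44LowKitPos.

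The inflammatory ligands CCL3 and CCL4 were found in every CD44High library. Ccl3 was 164, 218 and 505 normalized CPM in CD44High, 0, 2.94 and 1.96 in CD44LowKitPos and at 0 in all endothelial libraries. It rose 181-fold in mean over CD44LowKitPos (log2 fold change 7.47 ± 1.08 SE; edgeR's quasi-likelihood test, adjusted p = 0.0024) and at least 706-fold over CD44LowKitNeg (edgeR, adjusted p = 1.36e-05). Ccl4 was 7.13, 34.1 and 401 in CD44High, 0, 1.73 and 2.26 in CD44LowKitPos and at 0 elsewhere, at least 352-fold higher than in CD44LowKitNeg (edgeR, adjusted p = 0.000441). Without CD44High replicate 22 the bound for Ccl4 fell to 49.2-fold (edgeR, adjusted p = 0.00979). The lowest CD44High library still exceeded every other library for both, while the spread within CD44High was wider for Ccl4 than for Ccl3 relative to the mean, since replicate 22 held most of the Ccl4 reads. Ccl3 lost its call over CD44LowKitPos without CD44High replicate 22 or CD44LowKitPos replicate 19 (highest adjusted p = 0.0211 by edgeR) and by DESeq2 (adjusted p = 0.162). With stage in the model that difference could not be estimated (SE 54732 on the log2 scale) and was not called (edgeR, adjusted p = 1). Without CD44High replicate 22 the folds of Ccl3 were 117 over CD44LowKitPos and at least 456 over CD44LowKitNeg, and without CD44LowKitPos replicate 18 the former was 302.

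Ccl6 and Ccl9 were at their highest in CD44High, at least 177-fold (edgeR's quasi-likelihood test, adjusted p = 7.35e-05) and 38.9-fold in mean (edgeR, adjusted p = 0.00256) above CD44LowKitNeg. The CD44LowKitNeg mean of Ccl9 rested on replicate 16 at 20.6 normalized CPM, the other 5 libraries holding at most 0.134, and the log2 fold change ran from 4.72 to 11.38 as single libraries were left out, with 11.38 without replicate 16. Against CD44Neg their adjusted p values were 0.000494 and 2.29e-06 (edgeR), and against CD44LowKitPos neither was called, although the libraries did not overlap. Without CD44High replicate 21 the call of Ccl9 over CD44LowKitNeg was lost (edgeR, adjusted p = 0.0191), as it was by DESeq2 (adjusted p = 0.0437).

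Ccl2, the main ligand of CCR2, was 43.0, 57.2 and 3.81 normalized CPM in CD44High and at 0 in every other library. Ccl24, an eosinophil-attracting ligand made by macrophages, was 12.5, 54.3 and 26.9 and also at 0 elsewhere. Both were found in all 3 CD44High libraries and in no other, at least 82.8-fold and 74.6-fold higher than in CD44LowKitNeg (edgeR's quasi-likelihood test, adjusted p = 0.00179 and 0.00141). Ccl12, a close relative of Ccl2, was 0.396, 21.3 and 3.81, with 2.15 in CD44Neg replicate 7 and 0 elsewhere, and was called against CD44LowKitNeg (edgeR, adjusted p = 0.00831) but lost the call in 11 of 21 fits that left out 1 library, the 6 CD44LowKitNeg and 3 CD44High libraries and CD44Neg replicates 5 and 8, with adjusted p up to 0.0416. Ccl2 lost its call over CD44LowKitNeg without CD44High replicate 20 or 21 (edgeR, adjusted p up to 0.0135) and Ccl24 without replicate 21 (adjusted p = 0.0129), where its bound was 47.0-fold. DESeq2 called none of the 3 against CD44LowKitNeg, with adjusted p from 0.0864 to 0.0971.

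**Figure D5:**
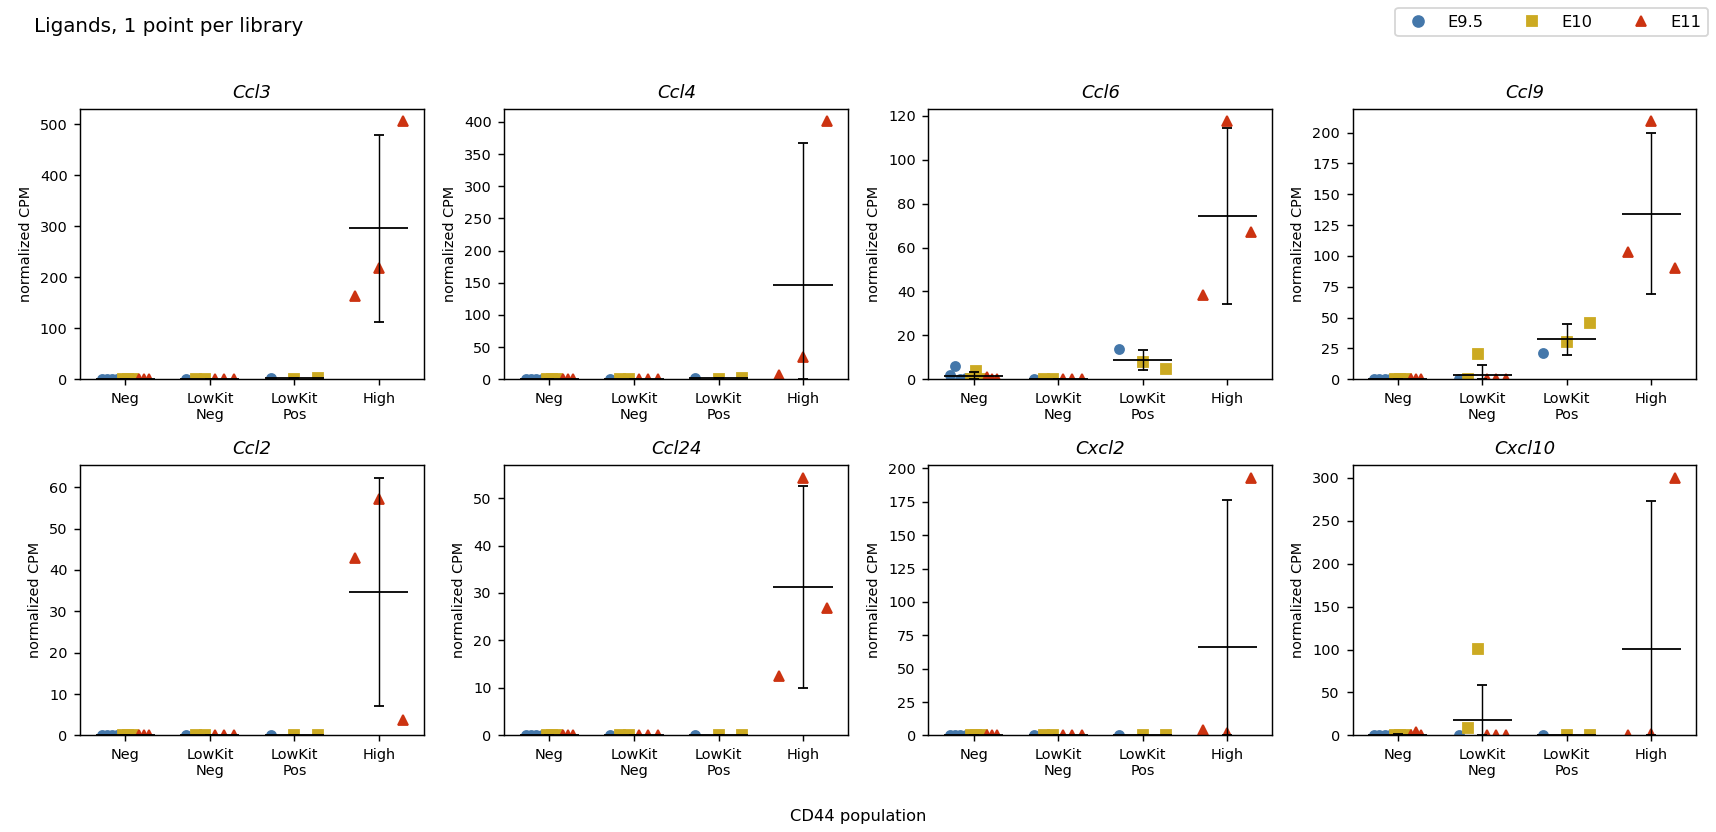
Normalized CPM (vertical axis) of 8 ligands in each library by population (horizontal axis), with stage as colour and shape, the mean as a horizontal line and the SD as a whisker cut at 0. Ccl3, Ccl4, Ccl6, Ccl9, Ccl2 and Ccl24 were higher in each CD44High library than in any other library, whereas Cxcl2 and Cxcl10 were at 193 and 300.4 in CD44High replicate 22 and at most 4.36 in the other 2.

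Cxcl10, an interferon-induced ligand of CXCR3, and Cxcl2, a ligand of CXCR2, rested on a few libraries. Cxcl10 was 0.792, 1.07 and 300.4 normalized CPM in CD44High, and in CD44LowKitNeg it was 100.1 in replicate 16, 8.73 in replicate 15 and 0 in the other 4. Its log2 fold change over CD44Neg was 7.56 ± 1.74 (SE; edgeR's quasi-likelihood test, adjusted p = 0.00221), and without CD44High replicate 22 it was 0.78 (edgeR, adjusted p = 0.863). Cxcl2 was 4.36, 1.60 and 193 in CD44High and did not pass the filter. Replicate 22 thus held the most Cxcl10, Cxcl2, Ccl3 and Ccl4 and the least Ccl2 of the 3. Cxcl11, the neighbour of Cxcl10, was found in CD44LowKitNeg replicate 16 alone, at 5.95. An exon of Art3 lies antisense to Cxcl10.

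Several of the members that rose in CD44High lie side by side in the genome. A cluster on chromosome 9 holds Ccr9, Cxcr6, Xcr1, Ccr1, Ccr3 and Ccr2. Of these, Ccr1 and Ccr2 were higher in each CD44High library than in any other library. Cxcr6 and Xcr1 had no read in CD44High, Ccr9 was detected in CD44High replicate 22 alone and Ccr3 in no library. On chromosome 11, 138.9 kb (chr11:83525778-83664683) hold Ccl5, Ccl9, Ccl6, Ccl3 and Ccl4, of which Ccl5 had no read in any library and the other 4 were detected in CD44LowKitPos and CD44High. Ccl6 was also detected in CD44Neg, at up to 5.97 normalized CPM, and Ccl9 in CD44LowKitNeg replicate 16, at 20.6. A further 270.1 kb (chr11:82035571-82305690) hold Ccl2, Ccl7, Ccl11, Ccl12, Ccl8 and Ccl1, of which Ccl11, Ccl8 and Ccl1 had no read. The positions are those of GENCODE on GRCm38, where 60 of the 61 members were found.

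The promoters of Ccr1 and of the cluster ligands Ccl3 and Ccl9 (all 3 higher in each CD44High library than in any other) and that of Cxcl10, which stood apart in CD44High replicate 22, are printed next with motif matches in capitals. They are the 200 bases before each gene's start (RefSeq, GRCm38.p6), at chr9:123968693-123968892, minus strand, for Ccr1, at chr11:83649379-83649578, minus strand, for Ccl3, at chr11:83578637-83578836, minus strand, for Ccl9 and at chr5:92348890-92349089, minus strand, for Cxcl10, each 5′ to 3′ in the direction of the gene. The promoter of Ccl6, a ligand of the same cluster that was also higher in each CD44High library, held no match of the motifs searched and is not printed.
Ccr1: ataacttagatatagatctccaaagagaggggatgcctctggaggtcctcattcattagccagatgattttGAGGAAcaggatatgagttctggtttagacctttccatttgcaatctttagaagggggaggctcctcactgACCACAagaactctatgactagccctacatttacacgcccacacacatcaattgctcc
Ccl3: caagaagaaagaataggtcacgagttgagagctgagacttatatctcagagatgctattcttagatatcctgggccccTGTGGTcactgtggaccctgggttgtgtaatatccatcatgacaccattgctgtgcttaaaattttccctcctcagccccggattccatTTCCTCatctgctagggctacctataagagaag
Ccl9: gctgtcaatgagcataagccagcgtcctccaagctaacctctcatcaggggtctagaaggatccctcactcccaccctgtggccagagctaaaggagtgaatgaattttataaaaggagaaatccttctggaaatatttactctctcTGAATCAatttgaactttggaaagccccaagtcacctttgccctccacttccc
Cxcl10: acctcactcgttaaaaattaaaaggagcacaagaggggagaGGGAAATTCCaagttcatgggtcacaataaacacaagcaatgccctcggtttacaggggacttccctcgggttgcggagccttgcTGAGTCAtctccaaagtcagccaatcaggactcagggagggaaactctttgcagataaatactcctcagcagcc
In Ccr1 the capitals mark GAGGAA, starting 129 bases before the gene's start, and the reverse complement of TGTGGT at 58. In Ccl3 they mark TGTGGT at 122 and the reverse complement of GAGGAA at 33. Ccl9 holds TGANTCA at 53, and Cxcl10 holds TGANTCA at 74 and the NF-kappaB motif at 159.

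Over 250 bases before the start, GAGGAA on either strand was in 30.8% of 52 promoters of 45 members and in 23.3% of all 32851 promoters, TGTGGT in 19.2% and 14.0%, TGANTCA in 11.5% and 6.75%, and the NF-kappaB motif in 11.5% and 1.21%. The 6 members with the NF-kappaB motif were Ccl1, Ccr3, Cxcl1, Cxcl2, Cxcl3 and Cxcl10, of which Ccl1 and Ccr3 had no read in any library and Cxcl1, Cxcl2 and Cxcl3 are neighbouring, related genes. These are matches of letters only. No promoter was given for Ccl2, Ccl4 and Ccl24, among others.

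The other detected members were rare. Cxcl13, a B cell attractant, was found in CD44High replicate 20 at 27.7 normalized CPM and at 0.224 in CD44Neg replicate 9. Ccl28, an epithelial ligand, was found at 13.1 and 3.48 in CD44LowKitNeg replicates 15 and 14, and Ccl7, a ligand of CCR2, at 22.9 and 1.90 in CD44High replicates 21 and 22. Cxcl1, a neutrophil attractant, reached 5.45 in CD44Neg replicate 2, and Ccl20, the ligand of CCR6, 4.62 in CD44Neg replicate 8. The highest level was 4.19 for Cxcl3 and 4.08 for each of Cxcl5 and Ccr9. It was 4.96 for Ccl27a, 4.30 for Cxcr5 and 2.78 for Ackr4. It was 2.66 for Ccl17, 2.52 for Ccr7, 1.90 for Cxcl17 and 0.717 for Cxcl14, and Ccr10 was found in CD44Neg replicate 7 alone above the floor. Of these, Ccl27a, Cxcr5 and Cxcl3 were tested in the fit of all libraries and not called in any comparison. Ccl20 and Xcr1 were tested for dependence on stage alone and not called, and the others passed no filter.

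The 19 members without a read in any library were the ligands Ccl1, Ccl5, Ccl8, Ccl11, Ccl19, Ccl21a, Ccl21b, Ccl21c, Ccl22, Ccl26, Ccl27b, Cxcl9, Cxcl15 and Xcl1 and the receptors Ccr3, Ccr4, Ccr6, Ccr8 and Cxcr1. Both ligands of CCR7, Ccl19 and the Ccl21 genes, were among them, and the Ccl21 genes are near-identical copies, so that their counts are uncertain. Their receptor Ccr7 reached 2.52 in CD44LowKitNeg replicate 15 and at most 0.302 elsewhere.

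Below the receptors, 58 of 60 listed genes of G protein, arrestin, RGS, RAC and kinase signalling were in the table. Between CD44LowKitNeg and CD44Neg, 45 were tested, 2 were higher (Rgs2 and Gng5) and 2 lower (Gng2 and Lyn), a share near the 10.2% called among all genes tested, and their median log2 fold change was -0.08. Rgs2, a brake on G protein signalling, was 948 ± 201 normalized CPM in CD44LowKitNeg (SD, n = 6) and 361 ± 176 in CD44Neg (n = 10), a log2 fold change of 1.40 ± 0.23 (SE; edgeR's quasi-likelihood test, adjusted p = 0.000301). Gng2, a G protein gamma subunit, was 19.3 ± 13.8 against 159 ± 31.2 (-3.03 ± 0.52; edgeR, adjusted p = 0.000437), while Gng5, another, was 535 ± 183 against 332 ± 59.2 (0.69 ± 0.18; edgeR, adjusted p = 0.00891). Lyn, a SRC family kinase, was 49.6 ± 13.8 against 100.2 ± 21.8 (-1.01 ± 0.21; edgeR, adjusted p = 0.00227).

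In CD44High against CD44LowKitNeg, 11 of the 58 signalling genes were higher and 10 lower, where 7.79% and 8.17% of all genes tested were. Rgs18 and Rgs1, regulators of G protein signalling in blood cells, had no read in either endothelial population and reached 202 ± 92.4 and 71.1 ± 46.1 normalized CPM in CD44High (SD, n = 3; edgeR's quasi-likelihood test, adjusted p = 1.23e-06 and 0.000685). Gnai1, an inhibitory G protein subunit through which chemokine receptors signal, and the kinase Src had no read in CD44High and were 9.12 ± 14.3 and 4.34 ± 1.25 in CD44LowKitNeg (n = 6, where Gnai1 was 37.8 in replicate 14 and at most 8.02 in the others; edgeR, adjusted p = 0.00599 and 0.000781). Rgs3 was 0.716 ± 0.671 in CD44High against 121 ± 50.1 (-7.45 ± 0.76 on the log2 scale; edgeR, adjusted p = 1.36e-07). Against CD44Neg, 15 of 58 were higher and 8 lower (7.14% and 7.25% of all genes tested), and against CD44LowKitPos 1 was higher and 2 were lower (0.78% and 2.23%). In CD44LowKitPos, 3 were higher and 2 lower than in CD44LowKitNeg (4.26% of all genes tested in either direction), and 8 higher and 3 lower than in CD44Neg (3.48%).

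Relatives whose symbols do not follow the naming pattern were read beside the members. Pf4, the platelet chemokine CXCL4, was 36.0 ± 20.5 normalized CPM in CD44LowKitPos and 104 ± 82.3 in CD44High (SD, n = 3 each), against 0.392 ± 0.959 in CD44LowKitNeg and 1.89 ± 1.59 in CD44Neg, and it was called higher in all 4 of those comparisons (edgeR's quasi-likelihood test, adjusted p up to 0.00577). Mif, a cytokine that can bind CXCR2 and CXCR4, was 219 ± 106 in CD44LowKitNeg and 823 ± 189 in CD44Neg (log2 fold change -1.91 ± 0.25 SE; edgeR, adjusted p = 3.89e-05), and 699 ± 193 and 683 ± 162 in CD44LowKitPos and CD44High. Cd74, which also binds MIF, was found in CD44High alone, at 9.70 ± 2.68. Ppbp, another platelet chemokine, reached 36.6 in CD44LowKitPos, Ccrl2, an atypical receptor-like protein, 106 in CD44High, Dpp4, a protease that trims chemokines, 41.0 in CD44LowKitNeg and Cmklr1, the chemerin receptor, 14.5 in CD44LowKitNeg. Those 4 were not called in any comparison, and Ccr1l1 had no read.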

How the data were processed

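SMART-Seq2 libraries were made by the authors from polyadenylated RNA of 25 cells each, clipped with FASTX, mapped with RNA STAR and counted with htseq-count on a Galaxy server. The deposited values are raw read counts per gene symbol, and the submitters' processing notes name FastQC, HTSeq and mm10. The annotation, strand setting, tool versions and handling of reads shared between genes are not given in the sources used here. Reads carry no molecular identifiers. Columns were matched to samples by their labels.

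The software was R 4.3.3 (edgeR 4.0.16, DESeq2 1.42.0, limma 3.58.1) and, for figures and sequences, Python 3.11.15 (matplotlib 3.10.9, pandas 2.3.3). Low counts were removed with filterByExpr (minimum count 10, minimum total 15), followed by TMM scaling and edgeR's quasi-likelihood test (prior count 0.125) with Benjamini-Hochberg adjustment over all genes tested. An adjusted p under 0.01 was a call. CD44LowKitNeg and CD44Neg were compared in their own 16 libraries, and the other populations in 1 fit of 22. Standard errors came from the F statistic. Libraries of 1 population and stage differed by 17 to 85.2 chi-square units per degree of freedom over 20 pairs, so none was counted as a repeat. The fits were tested on simulated data.

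Members and gene lists were chosen with earlier results of these data known. By rule, full values were given for members called in at least 1 comparison and for Cxcl12, Cxcr4 and Ackr3, ranges or highest values for the others, and the 3 largest changes in each direction for the signalling list. Cxcl16, Ackr1, Cxcr3, Cxcl2 and the stage comparison within CD44LowKitNeg were added after their values were seen. Alternatives were DESeq2's size factors, no filter, DESeq2's Wald test, a threshold of 0.05, Rn45s left out, stage in the model, matched stages and each library left out. Promoters were matched by symbol for 45 members. The values of 1 member, which stays in the counts, and of 1 signalling gene are not reported here. The single-cell data were not analysed here, and no protein sequence was used.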

Additional observations from a re-analysis of the deposited data

Results flagged for a closer look

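Among the members with full values, 17 groups of 6 or 10 libraries with a level above 0 were examined for a library whose gap to its nearest neighbour was wide for the range of its group (Dixon's 95% limit). In 8 of them 1 library stood apart, where chance flags about 1 in 20 groups of normally spread values. That rate does not hold for groups mostly at 0, in which 1 library with reads is always set apart. In CD44LowKitNeg, replicate 16 stood apart for Cxcl10 at 100.1 normalized CPM (the next library held 8.73) and for Ccl9 at 20.6 (next 0.134). Replicate 14 stood apart for Cx3cr1 at 13.7 and replicate 15 for Cxcr2 at 6.71. In CD44Neg, replicate 2 stood apart for Cxcr4 at 22.6 (next 11.6) and for Cxcl10 at 4.28, replicate 3 for Cxcr2 at 4.49 and replicate 7 for Ccl12 at 2.15. Groups of 3 libraries were not examined.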

How the results depend on the processing

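The alternatives were fitted for each call of a member and, between CD44LowKitNeg and CD44Neg and between the stages of CD44LowKitNeg, for members of the CXCL12 axis, Cx3cl1, Cxcl16 and, in the former, Ackr1. None of these fitted differences reversed: 1051 values kept their side of the threshold, 52 lost the call and 12 gained it, and the cause was not tested. The number of members called moved by over 1.5 times as follows. At an adjusted p under 0.05 it was 4 for CD44LowKitNeg against CD44Neg (0 at the threshold used; 20.1% of all genes tested), 6 for CD44LowKitPos against CD44LowKitNeg (from 2; 12.5%), 4 for CD44LowKitPos against CD44Neg (from 2; 7.27%), 8 for CD44High against CD44LowKitPos (from 4; 6.05%) and 1 for CD44LowKitNeg at E11 against E9.5 and E10 (from 0; 2.13%). DESeq2 called 1 member for CD44LowKitNeg against CD44Neg (15.8% of all genes), 4 for CD44LowKitPos against CD44LowKitNeg (9.77%), 7 for CD44High against CD44LowKitNeg (from 11; 20.6%), 8 for CD44High against CD44Neg (from 13; 17.4%) and 1 for CD44LowKitNeg at E11 against E9.5 and E10 (5.07%). It gave no adjusted p for 5 to 9 members in the comparisons over all libraries. Those stand as not called in these DESeq2 counts and were left out of the values kept, lost or gained. For CD44High against CD44Neg they included Cx3cr1, Cxcl10 and Cxcr2, which edgeR called. Cx3cr1, also called by edgeR, was among them for CD44High against CD44LowKitNeg and against CD44LowKitPos. With stage in the model the counts were 1 for CD44LowKitNeg against CD44Neg (11.9%), 0 for CD44LowKitPos against CD44LowKitNeg (2.83%) and 2 for CD44High against CD44LowKitPos (2.73%), where Ccr1 and Ccl3 were not called. With the E11 libraries alone 1 was called for CD44LowKitNeg against CD44Neg (3.41%), and with E9.5 and E10 alone 0 for CD44LowKitPos against CD44LowKitNeg (0.0758%) and 1 for CD44LowKitPos against CD44Neg (2.42%). With no filter 4 were called for CD44LowKitPos against CD44Neg (2.58%), 1 for the dependence on stage (1.19%) and 1 for CD44LowKitNeg at E11 against E9.5 and E10 (1.1%). CD44High and CD44LowKitPos could not be compared at E11 alone.

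With each library left out in turn, the counts ran from 8 to 12 for CD44High against CD44LowKitNeg, from 11 to 14 for CD44High against CD44Neg and from 2 to 4 for CD44High against CD44LowKitPos (2 without CD44LowKitPos replicate 19 or CD44High replicate 22). They ran from 2 to 4 for CD44LowKitPos against CD44LowKitNeg (4 without CD44LowKitNeg replicate 16), from 2 to 3 for CD44LowKitPos against CD44Neg, from 0 to 1 for CD44LowKitNeg against CD44Neg (1 without CD44Neg replicate 9 or CD44LowKitNeg replicate 16) and from 0 to 1 for CD44Neg at E11 against E9.5 (1 without replicate 5). The other 4 counts stayed at 0. The shares of all genes called in these fits were not worked out, so whether the changes were particular to the members was not tested. No paired analysis was possible because each replicate number belongs to 1 library and no populations share a number. With 25 cells a library and 3 libraries in CD44LowKitPos and in CD44High, a member at 0 was not detectable at this depth rather than absent.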
